A study of Mus musculus with 6 samples.

Results

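The genes described here encode the subunits of the proteasome and the immunoproteasome, together with the factors that activate, inhibit or assemble the particle. They were taken by symbol alone, as the Psma, Psmb, Psmc, Psmd, Psme, Psmf and Psmg genes followed by a number, which gave 49 of the 54446 genes listed for each library. RNA-seq had been carried out on the livers of 3 WT and 3 Fmo5-/- mice, with 1 library per mouse. All the mice were males of 32 weeks of age on a C57BL/6J background, were bred at the same institution, received a standard chow diet and no treatment, and were housed in adjacent cages. The Fmo5-/- mice lack flavin-containing monooxygenase 5 (FMO5), an enzyme that is abundant in liver. Mice are numbered 1 to 3 within each genotype, and these numbers serve only as names. The comparison addresses whether disruption of Fmo5 was accompanied by different expression of the standard and of the inducible subunits.

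The proteasome is the main protease of the cytosol and nucleus for proteins tagged with ubiquitin. Its 20S core is a barrel in which outer rings of alpha subunits control entry and inner rings of beta subunits hold the active sites, and its 19S cap recognizes, unfolds and feeds in the tagged substrates. Interferons and immune cells bring in alternative catalytic subunits, encoded by Psmb8, Psmb9 and Psmb10, and the PA28 activator, encoded by Psme1 and Psme2, and the resulting immunoproteasome favours peptides that fit MHC class I molecules.

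The counts on genes ranged from 44886286 to 52338675 per library, and 16734 genes were tested with edgeR. Counts were scaled between libraries and are given as normalized counts, which correct for depth but not for gene length. Normalized counts of Fmo5 itself were 39808, 37405 and 30239.7 in WT mice 1 to 3 and 1071, 1102 and 1194 in Fmo5-/- mice 1 to 3, a level 31.9-fold lower in the latter (edgeR adjusted p = 2.79e-07). All 9 hepatocyte markers examined, among them Alb and Ttr, were detected in every library, and none passed the test. A gene was called differentially expressed where its adjusted p was under 0.05 and its normalized count averaged at least 500 over the 6 libraries, and 43 genes were so called higher and 83 lower in Fmo5-/- mice. Of the 49 proteasome genes, 48 were tested and 44 reached that mean. The thymus-specific core subunit Psmb11, with 3 reads in all 6 libraries, was not tested.

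The inducible catalytic subunits stood apart from the rest of the proteasome. Psmb8, Psmb9 and Psmb10 had about 1.92-, 2.11- and 1.62-fold the WT level in Fmo5-/- mice, whereas 30 of the 31 constitutive 20S and 19S subunits had means slightly below WT. By edgeR, Psmb10 was the only member that was differentially expressed, 1 of the 48 tested, against 0.55% called higher and 1.06% called lower among all 7819 genes that reached the mean of 500. DESeq2, run on the same counts, called Psmb8, Psmb9 and Psmb10 higher, against 2.77% of genes, and called Psmb7, Psmc6, Psmd1, Psmd14 and Psme4 lower, against 6.77%. With edgeR, 4 members were higher and 14 were lower at an unadjusted p under 0.05, against 7.62% higher and 17.6% lower among the 7819 genes. Counts of all 3 Fmo5-/- mice lay above those of all 3 WT mice for 4 members, against 9.39% of the 7819 genes, and below them for 22 members, against 21.9%.

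Psmb10 encodes the inducible trypsin-like subunit, which takes the place of Psmb7. Its normalized counts were 1436, 1464 and 1645 in WT mice and 2228, 2978 and 2135 in Fmo5-/- mice. The lowest Fmo5-/- mouse lay above the highest WT mouse, and Fmo5-/- mouse 2 lay well above the other two. The log2 fold change was 0.69 (SE 0.13, edgeR adjusted p = 0.0468). This call was kept when Fmo5-/- mouse 3 was left out and was lost when any other single library was left out, with edgeR adjusted p between 0.0529 and 0.138.

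Psmb8 encodes the inducible chymotrypsin-like subunit, which takes the place of Psmb5. Its normalized counts were 1098, 1082 and 1234 in WT mice and 1932, 2892 and 1733 in Fmo5-/- mice. The groups did not overlap, and the spread was wider in Fmo5-/- mice (2186 ± 620, SD, n = 3) than in WT mice (1138 ± 83.4, SD, n = 3). The log2 fold change was 0.94 (SE 0.18), which missed the threshold with edgeR (adjusted p = 0.0554) and passed it with DESeq2 (adjusted p = 2.59e-05).

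Psmb9 encodes the inducible subunit that takes the place of Psmb6, the caspase-like subunit, and cleaves after hydrophobic rather than acidic residues. Its normalized counts were 908, 831 and 883 in WT mice and 1626, 2571 and 1326 in Fmo5-/- mice. All the Fmo5-/- mice lay above all the WT mice, with mouse 2 again the highest and mouse 3 the lowest of the Fmo5-/- mice, an order that Psmb8 and Psmb10 shared. The log2 fold change was 1.07 (SE 0.23), again past the threshold with DESeq2 (adjusted p = 2.53e-05) and short of it with edgeR (adjusted p = 0.0710). Without Fmo5-/- mouse 2, the log2 fold changes of Psmb8, Psmb9 and Psmb10 were 0.69, 0.76 and 0.53, and without Fmo5-/- mouse 3 all 3 passed the edgeR test.

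**Figure D1:**
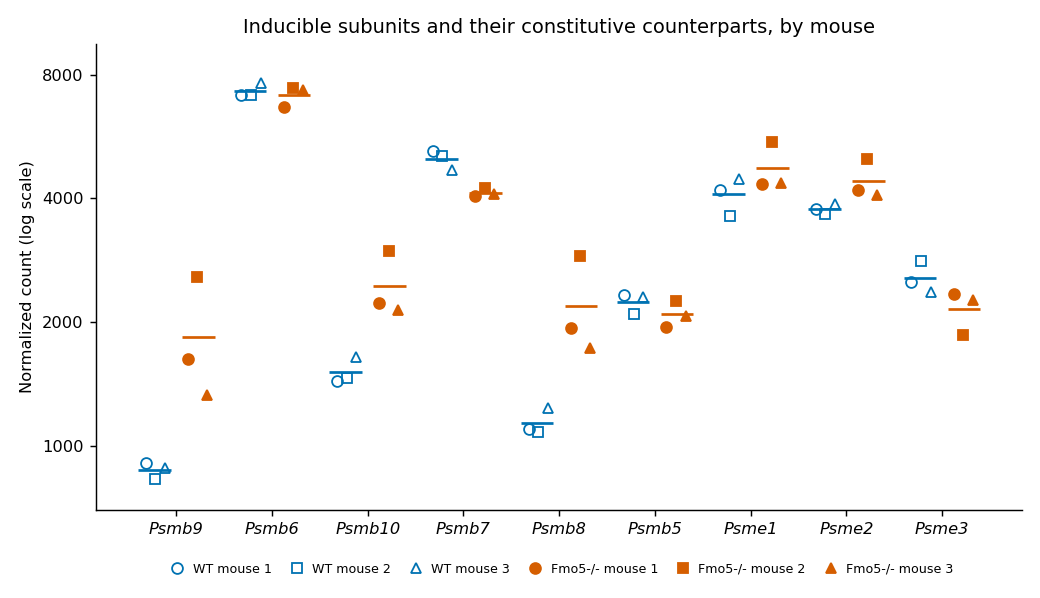
Normalized counts on a log scale for the inducible catalytic subunits Psmb9, Psmb10 and Psmb8, each followed by the constitutive subunit it replaces, and for the activators Psme1, Psme2 and Psme3. Open blue symbols are WT mice, filled orange symbols are Fmo5-/- mice and lines are group means. For Psmb8, Psmb9 and Psmb10, all 3 Fmo5-/- mice lie above all 3 WT mice, whereas for Psmb5 and Psmb6 the groups overlap.

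Psmb8 and Psmb9 lie close together in the MHC region, Psmb8 at chr17:34197721-34201454 on the plus strand and Psmb9 at chr17:34181987-34187764 on the minus strand, with the peptide transporter genes Tap1 and Tap2 beside them, and Psmb10 lies apart at chr8:105935735-105938444 (GENCODE vM21, the build of mm10). The exons of Psmb9 overlap those of Tap1 on the opposite strand, and those of Psmb8 overlap the antisense gene Gm20496. Reads that fell in 2 genes were not counted, so the count of both strands held 69.6% of the summed single-strand counts for Psmb8 and 96.2% for Psmb9, but 100% for Psmb10. Counted on 1 strand, the log2 fold change of Psmb8 was 0.90 and that of Psmb9 was 1.15. The libraries did not mark strand, so that reads of Psmb8 and of its antisense partner cannot be told apart. Gm20496 itself received 50 reads over the 6 libraries, which were only 1.01% of its summed single-strand counts.

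The sequences before the RefSeq starts of these 3 genes (RefSeq, GRCm38.p6) are shown because the 3 genes were higher in the same mice, with those of Psmb5 and Psmb6, whose groups overlapped, for comparison. The 250 bases before each start were searched on both strands for the interferon-stimulated response element (ISRE; GAAA, any 2 bases, then GAAA), TTCNNNGAA (the gamma-activated site, GAS), TGACNNNGC (the antioxidant response element core, ARE), CCAAT, the NF-kB site (GGGA, any 4 bases, then CC) and CCGGAAG (ETS). For Psmb8 and Psmb9 the whole window lies in exons of other transcripts of the same gene, and only 30 bases are shown for each. For Psmb10 and Psmb5 the bases outside annotated exons are shown, and for Psmb6 the whole window. Capitals mark the motif match, and all sequences read 5′ to 3′ on the strand of the gene.
Psmb8, chr17:34198088-34198117, plus strand: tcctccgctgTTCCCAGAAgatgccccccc
Psmb9, chr17:34187331-34187360, minus strand: cctgcaccgcgcgcagccgctgATTGGaaa
Psmb10, chr8:105938445-105938642, minus strand: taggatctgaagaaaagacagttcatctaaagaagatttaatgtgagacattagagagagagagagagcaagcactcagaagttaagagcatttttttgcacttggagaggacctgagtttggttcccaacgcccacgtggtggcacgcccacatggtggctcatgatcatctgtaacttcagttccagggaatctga
Psmb5, chr14:54618023-54618245, minus strand: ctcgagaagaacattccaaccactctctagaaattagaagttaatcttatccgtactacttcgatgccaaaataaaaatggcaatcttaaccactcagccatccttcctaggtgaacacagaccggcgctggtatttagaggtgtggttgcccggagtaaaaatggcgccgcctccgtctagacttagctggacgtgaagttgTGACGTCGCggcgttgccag
Psmb6, chr11:70525107-70525356, plus strand: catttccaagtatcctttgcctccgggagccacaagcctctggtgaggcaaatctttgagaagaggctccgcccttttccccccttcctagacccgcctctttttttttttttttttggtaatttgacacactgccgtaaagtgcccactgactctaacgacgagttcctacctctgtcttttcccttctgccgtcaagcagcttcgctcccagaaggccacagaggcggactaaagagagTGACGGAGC

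The Psmb8 window held 1 GAS match, which begins 97 bases before the start. The Psmb9 window held a CCAAT box on the opposite strand, 8 bases before the start, and the starts of Psmb9 and Tap1 are 226 bases apart in opposite directions, so that their windows share 225 bases. The Psmb10 window held none of the 6 motifs, and the Psmb5 and Psmb6 windows each held an ARE match. Over the 44 windows of the 41 members that have a RefSeq entry, the GAS letters were found in 2 windows (7.02% of 32851 windows of all genes), the ISRE letters in 3 (2.98%), the ARE letters in 5 (10.2%), the CCAAT letters in 14 (33.8%) and the NF-kB letters in 10 (17.6%). The ETS letters were found in 13 of the 44 windows, or 29.5%, against 6.91% of all windows. Those windows belong to 12 genes: Psma6, Psmc1, Psmc2, Psmc6, Psmd2, Psmd4, Psmd6, Psmd11, Psmd12, Psme3, Psme4 and Psmg1. These are letter matches in 1 window and no measurement of binding.

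Ratios taken within a library need no scaling between libraries, and they compared each inducible subunit with the constitutive subunit it replaces. The count of Psmb8 over that of Psmb5 was 0.472, 0.517 and 0.537 in WT mice and 0.991, 1.29 and 0.837 in Fmo5-/- mice. The count of Psmb9 over that of Psmb6 was 0.127, 0.116 and 0.116 in WT mice and 0.243, 0.346 and 0.180 in Fmo5-/- mice. The count of Psmb10 over that of Psmb7 was 0.275, 0.289 and 0.351 in WT mice and 0.551, 0.702 and 0.520 in Fmo5-/- mice. In all 3 pairs every Fmo5-/- mouse lay above every WT mouse. The log2 ratios were higher in Fmo5-/- mice by 1.01, 1.05 and 0.95, each with p = 0.1 by the exact two-sided permutation test, the smallest p that 3 against 3 mice can give (0.125 after Benjamini-Hochberg adjustment over 5 ratios). With each library left out in turn these differences ranged from 0.84 to 1.15, from 0.81 to 1.28 and from 0.82 to 1.06.

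Per length of merged exons, the inducible subunit made up 5.76% ± 0.294 (SD, n = 3) of the mRNA for the position shared by Psmb6 and Psmb9 in WT mice and 11.5% ± 3.32 in Fmo5-/- mice. For the chymotrypsin-like position the share was 11.9% ± 0.692 in WT mice and 21.5% ± 3.68 in Fmo5-/- mice. The trypsin-like position had the highest share, 37.9% ± 3.05 in WT mice and 54.0% ± 3.92 in Fmo5-/- mice. This share depends on the reads that Psmb7 lost where its exons overlap those of Nek6. With the summed single-strand counts, an alternative chosen after seeing the data, it was 29.5% ± 2.41 in WT mice against 43.6% ± 3.73 in Fmo5-/- mice. The share for the chymotrypsin-like position was then 16.4% and 28.2%. Shares also depend on the length chosen: with the longest transcript they were 3.85% and 7.87%, 19.3% and 32.6%, and 39.8% and 56.0%, in the same order of positions and genotypes.

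**Figure D2:**
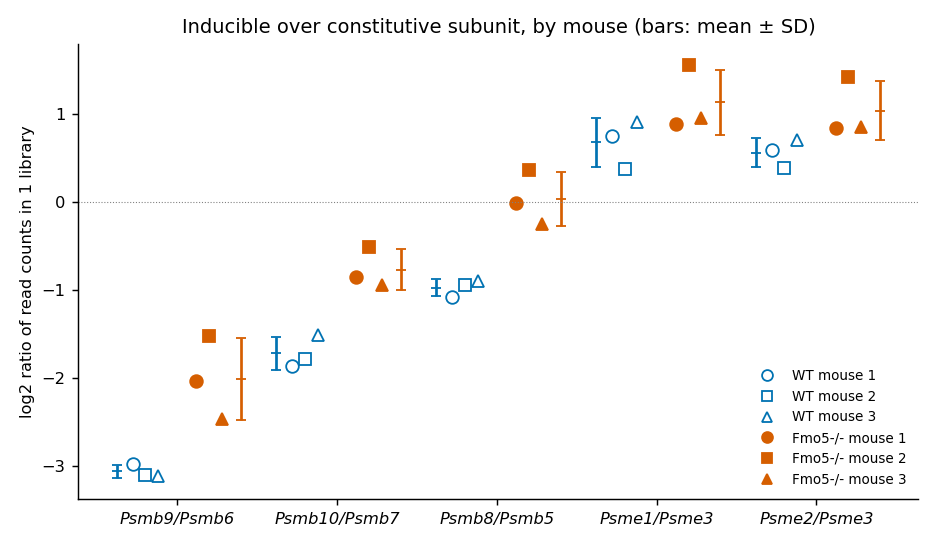
The log2 ratio of the read counts of an inducible or PA28 subunit to a constitutive counterpart within each library. Symbols are mice (open blue WT, filled orange Fmo5-/-), and bars give the mean ± SD of each genotype; the genotypes are separate for Psmb9/Psmb6, Psmb10/Psmb7, Psmb8/Psmb5 and Psme2/Psme3 and overlap for Psme1/Psme3.

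PA28 alpha and beta, encoded by Psme1 and Psme2, form a ring that opens the 20S core without ATP. Normalized counts of Psme1 were 4192, 3631 and 4459 in WT mice and 4341, 5489.8 and 4369.8 in Fmo5-/- mice. Only Fmo5-/- mouse 2 lay above the WT range, and the log2 fold change of 0.21 (SE 0.12) did not pass the edgeR test (adjusted p = 0.341). Normalized counts of Psme2 were 3759.5, 3659 and 3869 in WT mice and 4196, 4991 and 4066 in Fmo5-/- mice. The groups did not overlap, but the log2 fold change of 0.23 (SE 0.094) was not significant (edgeR adjusted p = 0.195). Psme2b, a retrocopy close to Psme2 in sequence whose reads can be confused with it, had a log2 fold change of 0.18 (edgeR adjusted p = 0.508) at a mean below 500. The log2 ratio to Psme3 was higher in Fmo5-/- mice by 0.46 for Psme1 (exact permutation p = 0.2) and by 0.48 for Psme2 (exact permutation p = 0.1). With each library left out in turn these differences ranged from 0.24 to 0.58 and from 0.28 to 0.57, the lowest in both cases without Fmo5-/- mouse 2, and that for Psme1 was 0.30 without WT mouse 2. Without Fmo5-/- mouse 2 the log2 fold changes of Psme1 and Psme2 themselves were 0.090 and 0.14, and that of Psme1 was 0.13 without WT mouse 2.

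The other activators had levels below or near WT. Psme3, which encodes the nuclear PA28 gamma, had normalized counts of 2501, 2809.8 and 2374 in WT mice and 2345, 1864 and 2265 in Fmo5-/- mice. The groups did not overlap, by a narrow margin, and the log2 fold change of -0.25 (SE 0.11), which was -0.15 without Fmo5-/- mouse 2, did not pass (edgeR adjusted p = 0.219). Psme4, which encodes the activator PA200, had the lowest log2 fold change of all members, with normalized counts of 6288, 7024 and 5234 in WT mice and 4959.6, 4015 and 4619 in Fmo5-/- mice. Its log2 fold change of -0.45 (SE 0.12) was significant by DESeq2 (adjusted p = 0.0173) but not by edgeR (adjusted p = 0.0888). Psmf1, which encodes the inhibitor PI31, gave 1198, 1362 and 1389 in WT mice and 1474, 1465 and 1364 in Fmo5-/- mice, with overlapping groups and a log2 fold change of 0.12 (SE 0.085, edgeR adjusted p = 0.441), or 0.065 without WT mouse 1.

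The constitutive subunits formed a narrow band just below WT. Of the 14 standard 20S and 17 19S subunits, 30 had means below WT in Fmo5-/- mice. Their log2 fold changes had a median of -0.14 and ran from -0.35 for Psmd1 to 0.018 for Psmd3. The number lower was 27 when genes with a mean under 500 were removed before scaling, and between 28 and 30 with any single library left out. With those genes removed, the median of the 31 was -0.076, against 0.0018 for all genes that reached the mean of 500. Means below WT were also found for 64.0% of the 7819 genes, whose median log2 fold change was -0.062. Of the 31 subunits, 27 lay below that median, and the gap between the medians was -0.079. Without Fmo5-/- mouse 1, 20 lay below the corresponding median and the gap was -0.025, and without Fmo5-/- mouse 2, 29 lay below it and the gap was -0.12. None of the 31 was differentially expressed by edgeR, 10 were lower at an unadjusted p under 0.05, against 17.6% of the 7819 genes, and DESeq2 called 4 lower, against 6.77%. In 18 of the 31 all the Fmo5-/- mice lay below all the WT mice, a separation that 21.9% of the 7819 genes also showed.

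The log2 fold changes of the 31 subunits had an SD of 0.086, against 0.29 over the 7819 genes. Within a genotype, the median coefficient of variation was 4.16% in WT and 4.50% in Fmo5-/- mice for the constitutive subunits, against 7.42% and 7.34% for all such genes, while for Psmb8, Psmb9 and Psmb10 it was 7.33% in WT and 28.4% in Fmo5-/- mice. The median subunit lay, on the log2 scale relative to the WT mean, at 0.023, -0.013 and -0.015 in WT mice and at -0.20, -0.071 and -0.16 in Fmo5-/- mice. Fmo5-/- mouse 2, the highest for the inducible subunits, was thus the nearest to WT for the constitutive ones.

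**Figure D3:**
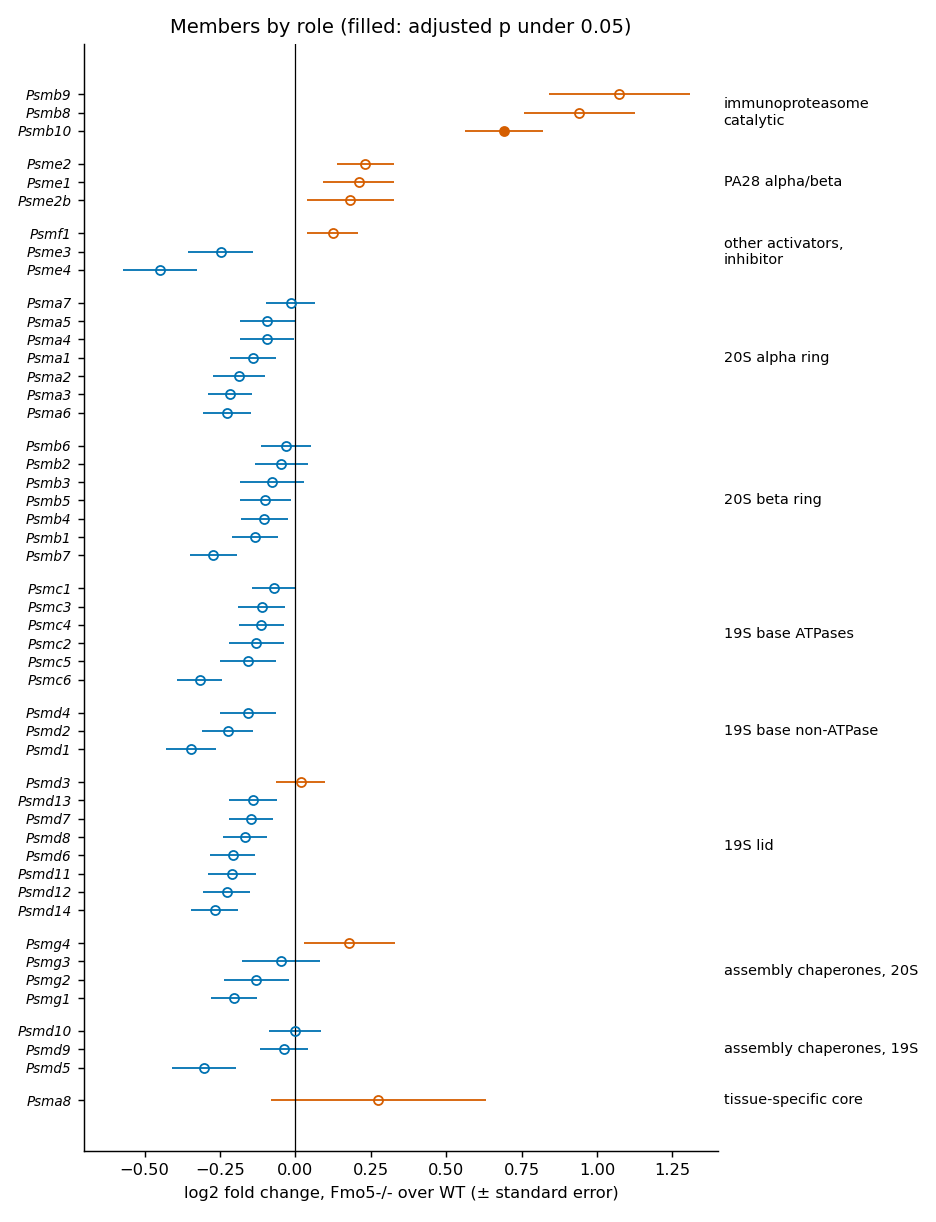
The log2 fold change, Fmo5-/- over WT, of the 48 tested members by role, with its standard error from edgeR. Psmb8, Psmb9 and Psmb10 lie at 0.69 or above, the 31 constitutive subunits lie between -0.35 and 0.018, and the filled symbol is Psmb10, the only member with an adjusted p under 0.05.

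Among the alpha subunits, which form the gated outer rings, all 7 had lower means, with a median log2 fold change of -0.14. Psma6 was the lowest, at 6429, 6810.2 and 6105 in WT mice and 5487, 5354 and 5688 in Fmo5-/- mice. All its Fmo5-/- values lay below its WT values (log2 fold change -0.23, SE 0.080, edgeR adjusted p = 0.147). Psma7 was the nearest to 0, at 6148, 5839 and 6038 in WT mice and 5532, 6120.4 and 6175 in Fmo5-/- mice, and its groups overlapped (log2 fold change -0.016, edgeR adjusted p = 0.930). Psma1, Psma2, Psma3, Psma4 and Psma5 lay in between.

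The constitutive beta subunits, 7 in number, were also lower in mean, with a median log2 fold change of -0.10. Psmb7, the trypsin-like subunit that Psmb10 replaces, was the lowest, at 5217, 5071 and 4685 in WT mice and 4047, 4244 and 4104 in Fmo5-/- mice. These groups were clearly separate, and the log2 fold change of -0.27 (SE 0.078) passed with DESeq2 (adjusted p = 0.0373) but not with edgeR (adjusted p = 0.0950). The count of both strands held 67.1% of the single-strand sum for Psmb7, whose exons overlap those of Nek6 on the opposite strand, and on 1 strand the log2 fold change was -0.21. Psmb6, the caspase-like subunit, gave 7143, 7156 and 7647 in WT mice and 6692, 7427 and 7350.4 in Fmo5-/- mice, and Psmb5, the chymotrypsin-like subunit, gave 2327, 2093 and 2296 in WT mice and 1949.8, 2249 and 2069.5 in Fmo5-/- mice. Both pairs of groups overlapped, with log2 fold changes of -0.032 and -0.10. That of Psmb5 ranged from -0.16 to -0.054 with single libraries left out. Psmb1, Psmb2, Psmb3 and Psmb4, which carry no active site, ranged from -0.13 for Psmb1 to -0.047 for Psmb2.

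In the base of the 19S cap, the 6 ATPases Psmc1 to Psmc6, which unfold substrates, all had lower means. Psmc6 was the lowest, at 5235, 4939 and 4833 in WT mice and 4004, 3966 and 4074 in Fmo5-/- mice. The groups were far apart relative to their spread (log2 fold change -0.32, SE 0.074), and the call was made by DESeq2 (adjusted p = 0.00836) but not by edgeR (adjusted p = 0.0685). Psmc1 was the nearest to 0, at 5887, 5948 and 5822 in WT mice and 5558, 5808 and 5446 in Fmo5-/- mice, with a log2 fold change of -0.071 (edgeR adjusted p = 0.627).

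The scaffold subunit Psmd1 had the lowest log2 fold change of the 31 constitutive subunits. It gave 5884, 5838 and 5248 in WT mice and 4679, 4349 and 4319 in Fmo5-/- mice, without overlap. The log2 fold change of -0.35 (SE 0.083) passed with DESeq2 (adjusted p = 0.00874) and not with edgeR (adjusted p = 0.0709). The other subunits of the base were Psmd2, a scaffold with a log2 fold change of -0.22 (edgeR adjusted p = 0.170), and Psmd4, a ubiquitin receptor, which gave 6215, 5652 and 6165 in WT mice and 4929.8, 5886 and 5353 in Fmo5-/- mice, with overlapping groups and a log2 fold change of -0.16 (edgeR adjusted p = 0.358), or -0.098 without Fmo5-/- mouse 1.

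In the lid of the cap, 7 of 8 subunits had lower means. Psmd14, the deubiquitinase that removes the ubiquitin chain, was the lowest, at 2767, 2905 and 2794 in WT mice and 2306, 2512 and 2218 in Fmo5-/- mice. Its groups did not overlap, and its log2 fold change was -0.27 (SE 0.078, DESeq2 adjusted p = 0.0489, edgeR adjusted p = 0.0995). Psmd3, the only constitutive subunit with a higher mean, gave 5411, 5567 and 5008 in WT mice and 5612, 5158 and 5412 in Fmo5-/- mice, with overlap and a log2 fold change of 0.018 (edgeR adjusted p = 0.923). The structural subunits Psmd6, Psmd7, Psmd8, Psmd11, Psmd12 and Psmd13 had log2 fold changes from -0.23 for Psmd12 to -0.14 for Psmd13.

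The assembly chaperones, which bring the subunits together and are absent from the finished particle, gave no call with edgeR. For the 20S core, Psmg1 was the lowest, at 1156, 1134 and 1198 in WT mice and 969.8, 1014 and 1047 in Fmo5-/- mice, and its groups did not overlap (log2 fold change -0.20, SE 0.075, edgeR adjusted p = 0.163). Psmg4 was the highest, at 328, 283 and 369 in WT mice and 307, 398 and 405 in Fmo5-/- mice, with overlap (log2 fold change 0.18, edgeR adjusted p = 0.536, from 0.089 to 0.30 with single libraries left out), and Psmg2 and Psmg3 lay between them. For the 19S base, Psmd5 gave 2077, 1694 and 1651 in WT mice and 1547, 1332 and 1516 in Fmo5-/- mice, without overlap (log2 fold change -0.30, SE 0.11, edgeR adjusted p = 0.150), and its log2 fold change was -0.19 without WT mouse 1. Psmd9 and Psmd10 were near 0, the latter at 729, 707 and 679 in WT mice and 736, 715 and 662 in Fmo5-/- mice (log2 fold change -0.0014). Of these 7 chaperones 2, Psmg1 and Psmd5, were lower at an unadjusted edgeR p under 0.05, against 17.6% of the 7819 genes, and DESeq2 called none. The testis-specific alpha subunit Psma8 was scarcely expressed, with normalized counts between 24.5 and 51.4 in the 6 libraries and overlapping groups.

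Levels differ by gene, and per kilobase of merged exons the WT means of the constitutive subunits ran from 779 normalized counts for Psmd1 to 5225 for Psma6, with a median of 1854. On the same scale Psmb9, Psmb8 and Psmb10 had WT levels of 239, 337 and 889 and Fmo5-/- levels of 503, 646 and 1435. The highest inducible catalytic subunit in Fmo5-/- liver thus remained below the median constitutive subunit in that genotype, which was 1643. The PA28 subunits Psme1 and Psme2 lay above that median, at 2143 and 2504 in Fmo5-/- mice.

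Genes that control or accompany the inducible subunits were examined as lists, to be read against the 0.55% of the 7819 genes that edgeR called higher and the 2.77% that DESeq2 called higher. Of 15 tested inducers of the immunoproteasome, 12 had higher means in Fmo5-/- mice, against 50.8% of all genes tested, 1 was differentially expressed by edgeR and DESeq2 called 4 higher. Irf7, an interferon regulatory factor, was that gene, at 1216, 1227 and 1442 in WT mice and 2213, 2280.0 and 2078 in Fmo5-/- mice (log2 fold change 0.76, SE 0.091, edgeR adjusted p = 0.00871). Its groups were widely separate, but mouse 2 stood out less than it did for Psmb8. Nlrc5, the MHC class I transactivator, gave 1445, 1453 and 1202 in WT mice and 2172, 2713 and 1758 in Fmo5-/- mice. The groups were separate and the Fmo5-/- mice were in the order seen for Psmb8, Psmb9 and Psmb10, with a log2 fold change of 0.70 (SE 0.16, edgeR adjusted p = 0.0662). Irf8, an interferon regulatory factor of myeloid cells that was named after its values were seen, had the largest log2 fold change of the list, at 357, 374 and 365 in WT mice against 777, 1055 and 489.9 in Fmo5-/- mice. Its groups did not overlap (log2 fold change 1.08, SE 0.25, edgeR adjusted p = 0.0763, DESeq2 adjusted p = 0.000181). Irf1 and Irf9 had log2 fold changes of 0.42 and 0.19 and did not pass (edgeR adjusted p = 0.205 and 0.210), and that of Irf1 was 0.25 without Fmo5-/- mouse 2. Ifng was not tested, with 10 reads in all, and Ifnb1 had 0 reads, which allows up to 3 counts.

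Of 35 interferon-induced genes, 33 had higher means, with a median log2 fold change of 0.83 against 0.0058 over all genes tested. Gbp3, Gbp7, Rtp4 and Parp14 were differentially expressed by edgeR, with log2 fold changes of 1.51, 1.06, 0.78 and 0.62. These were 4 of the 17 genes of the list that reached the mean of 500, against 0.55% of the 7819 genes, and DESeq2 called 11 higher, against 2.77%. Of the same 17 genes, 14 were higher without overlap between the genotypes, against 9.39%. Of the 14 genes of MHC class I peptide loading, which receive the peptides that the proteasome makes, 11 had higher means, and Tap2, Tapbp, H2-T23, H2-Q6 and H2-Q7, 5 of the 14 against 0.55% of genes, were differentially expressed by edgeR, with log2 fold changes of 0.50, 0.64, 0.51, 1.01 and 0.94. DESeq2 called 8 of the 14 higher and 1 lower, against 2.77% and 6.77% of genes. The lower gene was the chaperone Pdia3, whose groups did not overlap (log2 fold change -0.50, edgeR adjusted p = 0.0662), a separation that 21.9% of the 7819 genes also showed. The other members with lower means were Calr, with a log2 fold change of -0.39 and an unadjusted edgeR p under 0.05, and Erap1, at -0.11. Tap1, which starts beside Psmb9, gave 1612, 1355 and 1354 in WT mice and 2617, 3360.3 and 1919 in Fmo5-/- mice. Its groups were separate and its Fmo5-/- mice were in the same order as for Psmb9 (log2 fold change 0.87, SE 0.19, edgeR adjusted p = 0.0709). The H2-Q genes are close copies of each other, and their counts may be divided between them.

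Genes that control or accompany the constitutive particle were examined in the same way. Of 12 genes of proteasome transcription control, 9 had lower means, against 64.0% of the 7819 genes. None was called by edgeR, with 3 lower and 1 higher at an unadjusted p under 0.05, against 17.6% and 7.62%. DESeq2 called Nfe2l2 lower, against 6.77% of genes, and Mafk higher, against 2.77%. Without overlap between the genotypes, 3 genes of the list were lower, against 21.9% of the 7819 genes, and 1 was higher, against 9.39%. The latter was Mafk (log2 fold change 0.42, edgeR adjusted p = 0.0919). Nfe2l1, which encodes the factor that raises subunit transcription when proteasome activity is short, gave 7810.3, 8054 and 6686 in WT mice and 7481, 6384 and 6553 in Fmo5-/- mice. The groups overlapped, and the log2 fold change was -0.14 (SE 0.10, edgeR adjusted p = 0.461), from -0.22 without Fmo5-/- mouse 1 to -0.089 without WT mouse 2. Nfe2l2, which encodes the oxidative stress factor NRF2, gave 4394, 4009 and 4569 in WT mice and 3727, 3373 and 3474 in Fmo5-/- mice, without overlap (log2 fold change -0.29, SE 0.084, edgeR adjusted p = 0.0938). Partners of the particle outside the symbol rule, such as Pomp, Adrm1 and Usp14, had lower means in 16 of 16 cases, against 64.0% of the 7819 genes. None was called by edgeR, 6 were lower at an unadjusted p under 0.05, against 17.6%, and DESeq2 called 2 lower, against 6.77%. Of the 10 genes of ubiquitin and its activation, 9 of which reached the mean of 500, all had lower means, against 64.0% of the 7819 genes. At an unadjusted p under 0.05, 2 were lower, against 17.6%, and neither edgeR nor DESeq2 called any.

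Liver was measured whole, so that more cells of a type and more RNA per cell cannot be told apart. Summed markers of Kupffer cells and macrophages and of T and NK cells were, like Psmb8, Psmb9 and Psmb10, higher in every Fmo5-/- mouse than in every WT mouse. The 11 Kupffer cell and macrophage markers were all higher in mean, each with an unadjusted edgeR p under 0.05, against 7.62% of the 7819 genes, and 10 of them without overlap, against 9.39%. Of the 9 that reached the mean of 500, 8 did not overlap, edgeR called 1 higher (Clec4f), against 0.55%, and DESeq2 called 8, against 2.77%. Their summed normalized counts were 13445 to 15859 in WT mice and 20926 to 38255 in Fmo5-/- mice. For the 10 T and NK cell markers, all higher in mean, the sums were 229.9 to 339.9 in WT mice and 429 to 1388 in Fmo5-/- mice, and no marker reached the mean of 500. Of these 10 markers, 5 were higher without overlap, against 9.39% of the 7819 genes. An unadjusted edgeR p under 0.05 was found for 7 of them, against 7.62%. Both shares are over genes that reached the mean of 500, which none of these markers did, so the sets compared are unlike in level. Of the 7 general leukocyte markers, 6 (Ptprc, Cd52, Coro1a, Laptm5, Cd53 and Rac2) were higher without overlap, and the list had a median log2 fold change of 0.98. Only 3 of the 7 reached the mean of 500, of which 2 did not overlap, against 9.39% of the 7819 genes, and DESeq2 called 2 higher, against 2.77%, and edgeR none. Their sums, 5919.9 to 7052 in WT mice and 6858 to 9933 in Fmo5-/- mice, overlapped. The most abundant marker of the list in every library was Lcp1, at 4005 to 4740.2 in WT mice and 4112 to 4389 in Fmo5-/- mice. Its log2 fold change was -0.085, from -0.15 to -0.036 with single libraries left out. In the sums of all 3 lists Fmo5-/- mouse 2 was the highest and Fmo5-/- mouse 3 the lowest of the Fmo5-/- mice, as for Psmb8, Psmb9 and Psmb10. This order did not hold for every marker: Adgre1, Vsig4, Timd4, Marco, Csf1r, Rac2, Lcp1, Klrb1c and Ncr1 were highest in Fmo5-/- mouse 1. No marker was at 0 in all libraries. The sums of B and plasma cell markers (869 to 2401 and 1371 to 1803), of dendritic cell markers (275 to 349.7 and 319 to 669), of endothelial markers (10451 to 11977 and 10884 to 11472) and of hepatocyte, stellate cell and cholangiocyte markers overlapped between the genotypes. Among these, the dendritic cell, endothelial and cholangiocyte sums were also highest in Fmo5-/- mouse 2 and lowest in Fmo5-/- mouse 3 of the Fmo5-/- mice. The order was therefore not particular to the lists that were higher, and the B and plasma cell, hepatocyte and stellate cell sums did not show it. The part of these cell types in the levels of Psmb8, Psmb9 and Psmb10 was not tested.

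**Figure D4:**
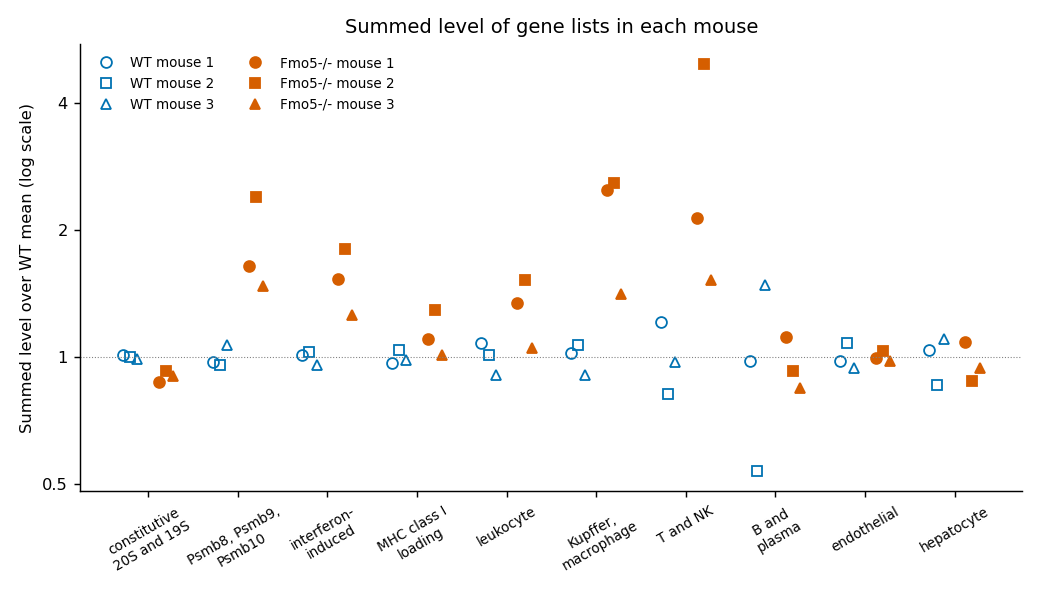
Summed normalized counts of each gene list in each mouse, relative to the WT mean of that list, on a log scale. Open blue symbols are WT and filled orange symbols are Fmo5-/- mice; the sum of the constitutive subunits in Fmo5-/- mice lies below WT, and Psmb8, Psmb9 and Psmb10, the interferon-induced genes, the Kupffer and macrophage markers and the T and NK markers lie above WT in all 3 Fmo5-/- mice.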

How the data were processed

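Adapters were clipped by the authors, who aligned the single reads to mm10 (STAR 2.6.0c) and deposited, per library, STAR's counts per gene on both strands and on each strand alone (the latter are listed as other counts). Per the file headers, a deposited comparison table also holds DESeq2 results as signal (normalized counts per library), log2 fold changes with standard errors, a Wald score and p-values. Only its symbols and signal were used, the latter to check that counts of both strands underlie it, and the authors' fold changes, scores and p-values were not used. Of the reads listed, 66.2% to 69.2% were counted on genes; the rest entered no test or library size. Where no read was counted, up to 3 counts are allowed at 95% confidence, for counting error only.

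Genes were filtered with filterByExpr (minimum count 10), given TMM factors and tested by genotype, without covariates, in edgeR 4.0.16 (robust quasi-likelihood, R 4.3.3), and p-values were adjusted over 16734 genes by Benjamini-Hochberg. A call required an adjusted p under 0.05 and normalized counts averaging at least 500, the limits the study used. DESeq2 1.42.0, RLE scaling, scaling without the 20 most abundant genes, no filter, the limit of 500 before fitting, 1 strand and leaving out each library were the alternatives. On simulated data for this comparison with 16734 genes, edgeR recovered 20.9%, 83.6% and 100% of changes of 0.5, 1 and 2 on the log2 scale, with 2 false among 138 calls, and DESeq2 recovered 28.4%, 86.6% and 100%, with 14 false among 157. In the measured libraries, among genes that reached the mean of 500, edgeR called 43 higher and 83 lower. DESeq2 called 216 higher and 528 lower. Whether the recovery and false-call rates hold for the measured libraries was not tested. Exact permutation tests covered ratios. Per-gene positions and lengths came from GENCODE vM21, which holds 54409 of 54446 identifiers, and promoters from RefSeq (8 members had no entry); the annotation release behind the counts is not given in the sources used here.

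Members and lists were chosen with earlier results of these data known, and lists were described without a test. Genes were named by rule: the inducible subunits and their counterparts, called members, the extremes of each role group, called genes of the other lists, and fixed regulators and neighbours. Of the listed symbols, 3 were not found in the table. The p-values reflect the spread between the mice, 1 library each. One gene of the fixed regulators is not reported here.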

Additional observations from a re-analysis of the deposited data

How the results depend on the processing

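The number of members differentially expressed and higher in Fmo5-/- mice was 1 (Psmb10), and it was 3 with DESeq2, 3 without the filter on low counts, 0 with the limit on the mean before the fit and 2 on 1 strand. It ranged from 0 to 3 with single libraries left out, being 0 without any 1 of the WT mice or Fmo5-/- mouse 1, 2 (Psmb8 and Psmb9) without Fmo5-/- mouse 2 and 3 without Fmo5-/- mouse 3. The number lower was 0, and 5 with DESeq2 and 4 without the filter. For the lists of partners, regulators, ubiquitin, interferon-induced and MHC class I genes together, without the cell type markers, 10 genes were called higher, and 24 with DESeq2, 26 without the filter, 6 with the limit before the fit and from 1 (without Fmo5-/- mouse 1) to 21 (without Fmo5-/- mouse 3) with single libraries left out; none was called lower, and 4 with DESeq2 and 7 without the filter. The median log2 fold change of the constitutive subunits, -0.14, was -0.076 with the limit before the fit, where the median of all genes with a mean of 500 or more was 0.0018 in place of -0.062. Of the 48 tested members, 8 changed direction in at least 1 alternative. With the limit before the fit, Psma7 was 0.050, Psmb2 0.018, Psmb6 0.033, Psmd9 0.026 and Psmd10 0.064. On 1 strand, Psmb2 was 0.0094, Psmg3 0.078 and Psmd10 0.086, and Psmd10 was 0.0045 without the 20 most abundant genes in the scaling. With single libraries left out, Psma7 ranged from -0.047 to 0.032, Psmb2 from -0.089 to 0.031, Psmb3 from -0.14 to 0.017, Psmb6 from -0.059 to 0.013, Psmd3 from -0.020 to 0.052, Psmd10 from -0.035 to 0.039 and Psmg3 from -0.12 to 0.045. The causes were not tested. Without the filter the fit gave very small adjusted p for Psmb8 (5.44e-16). The log2 fold changes of Psmb8, Psmb9 and Psmb10 stayed above 0 in every alternative. No paired analysis was made, because the WT and Fmo5-/- libraries came from different mice and the labels give no pairs.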
